A study of Mus musculus with 2 samples.

Results

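Transcript levels of 10 genes of cytokine feedback through JAK kinases and STAT factors were examined in mouse α4β7-positive lymphoid progenitors (αLPs). The genes are Cish, Socs1, Socs2 and Socs3, the transcription factor genes Stat3, Stat4, Stat5a and Stat5b, and the kinase genes Jak1 and Jak3. They were chosen by symbol, without use of their values, and all 10 were found among the 27998 genes of both count tables. αLPs are progenitors from which innate lymphoid cells (ILCs), lymphocytes without rearranged antigen receptors, can arise. One group was fetal liver at day E14.5 of gestation and the other was adult bone marrow, each measured in 1 library of single cells from untreated wild-type B6 mice. All cells had been sorted as Lin-CD45+CD127+ cells that carried α4β7 and lacked Flt3 and CD25, with no allele or agent that differed between the groups. How many mice were behind each library, and whether they were pooled, is not stated in the labels. The age printed on both samples, 6 to 8 weeks, cannot hold for the fetal one and was not used.

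When a cytokine binds its receptor, JAK kinases bound to the receptor phosphorylate it and the STAT proteins that dock there, and the STATs move to the nucleus and switch on target genes. Jak1 and Jak3 are the kinases paired with the receptors that contain the common γ chain, among them the interleukin 7 receptor (CD127) on which these cells were sorted, and Stat5a and Stat5b carry most of that signal. Cish and the Socs genes are themselves STAT targets. Their proteins bind the receptors or the kinases and dampen the same pathway, so their transcripts are often read as a trace of recent cytokine signalling.

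The promoter of Cish is printed because Cish differed most between the libraries. The motif TTCNNNGAA, the palindrome that STAT5 dimers are known to bind, was searched from 250 bases before to 50 bases after each start site in RefSeq (GRCm38.p6), where N is any base. The palindrome covers both strands. It occurred at 2 places in Cish, with 2 bases between them and the first beginning at base 1 of the RefSeq transcript, and the stretch below, with the matches in capitals, spans chr9:107296559-107296678 on the plus strand.
Cish: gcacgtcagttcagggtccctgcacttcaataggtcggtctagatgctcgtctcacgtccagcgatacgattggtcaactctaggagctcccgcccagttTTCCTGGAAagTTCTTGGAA
Socs3 held 1 match, 154 bases before its start site, at chr11:117969502-117969530 on the minus strand.
Socs3: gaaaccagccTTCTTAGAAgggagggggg
The motif was not in the windows of the other 7 genes that had an entry. Of all 32851 promoter windows, 8.30% held at least 1 match and 0.457% held 2 or more. These are matches of letters, not measured binding.

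After barcodes with under 500 genes or over 10% mitochondrial UMIs were left out, 8583 cells of fetal liver (91285900 UMIs) and 7258 of bone marrow (29941097 UMIs) remained. A UMI is a tag that marks 1 captured RNA molecule. The median depth was 9294 UMIs per fetal liver cell and 3447.5 per bone marrow cell, a 2.70-fold gap, and 19 cell barcodes were shared. A level is the UMIs of a gene per 1000000 UMIs (CPM), and 3 counts correspond to 0.0329 CPM in fetal liver against 0.1002 CPM in bone marrow. Of the sorted markers, Il7r had 178 CPM in fetal liver against 417 CPM in bone marrow, Itga4 at 172 and 262 CPM, Itgb7 at 47.9 and 61.8 CPM and Ptprc (CD45) at 78.6 and 135 CPM. Flt3 was low, at 1.45 and 1.20 CPM, and Il2ra (CD25) stood at 1.08 and 7.78 CPM. Xist, the RNA of the inactive X, had 252 CPM in fetal liver and 2 UMIs in all of bone marrow, while Ddx3y of the Y chromosome was read in both, so the sex of the mice cannot be told apart from tissue in any comparison here. Despite the lineage depletion, 4 small named fetal liver clusters carried B lineage, myeloid, mast or basophil, or erythroid markers. Of the unnamed clusters, fetal liver cluster 23 (53 cells) held globin and macrophage genes, bone marrow cluster 17 (44 cells) mast or basophil markers and bone marrow cluster 18 (23 cells) Cd3d, Cd3e and Cd3g.

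Of the 10 genes, most stood higher in bone marrow per captured molecule, and Socs2 was the exception with the clearest excess in fetal liver. All but Jak3, that is 9 members, reached the minimum of 10 CPM in the higher library. Of those 9, bone marrow was at least 2-fold higher in 4, Cish, Stat5a, Stat5b and Jak1, against 10.9% of all 6938 genes that reached the minimum. Only Socs2, 1 of the 9, was at least 2-fold higher in fetal liver, against 7.25% of all such genes. The other 4 were within 2-fold. Jak1 lay close to the line and fell inside 2-fold with either other scaling (-0.87 and -0.90), in cells with at least 1000 genes and at most 5% mitochondrial UMIs (-0.94) and without ILC2 progenitor-like cells (-0.90). The median log2 ratio (fetal liver over bone marrow) was -0.999 over the 9 members and 0.01 over all 6938 genes. With 1 library per tissue no test could be made, and every interval here is an exact 95% interval that covers counting error only.

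Cish encodes CIS, a receptor-bound feedback inhibitor of STAT5 signalling. It stood at 9.005 CPM in fetal liver (interval 8.40 to 9.64) and at 29.1 CPM in bone marrow (27.2 to 31.1), for a log2 ratio of -1.69 (-1.83 to -1.55). Counted per cell the gap was small, with 95.8 UMIs per 1000 fetal liver cells and 120 per 1000 bone marrow cells. Socs1 encodes the inhibitor that blocks the JAK kinases directly. It stood at 64.5 CPM in fetal liver against 129 CPM in bone marrow, for a log2 ratio of -0.999 (-1.06 to -0.94) that fell just inside 2-fold. Socs2, best known as the brake on growth hormone signalling, stood at 18.1 CPM in fetal liver against 8.32 CPM in bone marrow, for a log2 ratio of 1.13 (0.93 to 1.32). Socs3, the inhibitor of gp130 cytokine receptors, stood at 13.6 and 21.3 CPM, with a log2 ratio of -0.64 (-0.78 to -0.50).

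Stat5a and Stat5b, neighbouring genes for closely related factors, moved in the same direction. Stat5a stood at 7.82 CPM in fetal liver against 19.6 CPM in bone marrow (log2 ratio -1.33, -1.49 to -1.17). Stat5b stood at 8.75 and 25.4 CPM (log2 ratio -1.54, -1.68 to -1.39). Per 1000 cells, however, Stat5a gave 83.2 fetal liver UMIs and 81.0 bone marrow UMIs, so its difference was one of share among captured molecules and not of molecules captured per cell. For Socs1, Socs3, Stat3, Stat4 and Jak1 as well, the order per 1000 cells was the opposite of that in CPM. Fetal liver gave 686 UMIs of Socs1 against 532, 145 of Socs3 against 87.8 and 235 of Stat3 against 158. It gave 255 of Stat4 against 110 and 864 of Jak1 against 686. Stat3, which serves gp130 cytokines, stood at 22.1 and 38.3 CPM (log2 ratio -0.79, -0.90 to -0.69). Stat4, which serves interleukin 12, stood at 24.0 and 26.7 CPM. Its log2 ratio of -0.16 (-0.27 to -0.04) became 0.0057 with a median-ratio scaling, so no direction is given for it.

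Jak1 stood at 81.3 CPM in fetal liver against 166 CPM in bone marrow, for a log2 ratio of -1.03 (-1.09 to -0.98). Jak3, the partner kinase on the common γ chain, stood at 6.55 and 4.91 CPM, below the minimum in both libraries, with a log2 ratio of 0.42 (0.15 to 0.69). Some of these rows can share reads with other genes. In GENCODE M21 Stat3 (chromosome 11, 100885098 to 100939540, minus strand) and Stat5a (100859351 to 100885169, plus strand) overlap at their 3′ ends, Jak1 overlaps Raver2 on the opposite strand and Jak3 overlaps Insl3 on the same strand. Some members also overlap unnamed gene models. Cish overlaps Gm17040 and Gm17041 on the opposite strand. Stat4 overlaps Gm28177 on the same strand and Gm3940 on the opposite one, as Jak1 does Gm12785 and Gm24468. The labels do not state whether the counting used strand, so the values of all these genes are uncertain to that extent. The last 1000 bases of the Stat5a and Stat5b transcripts, where 3′ libraries take their reads, shared 0 words of 30 bases.

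**Figure D1:**
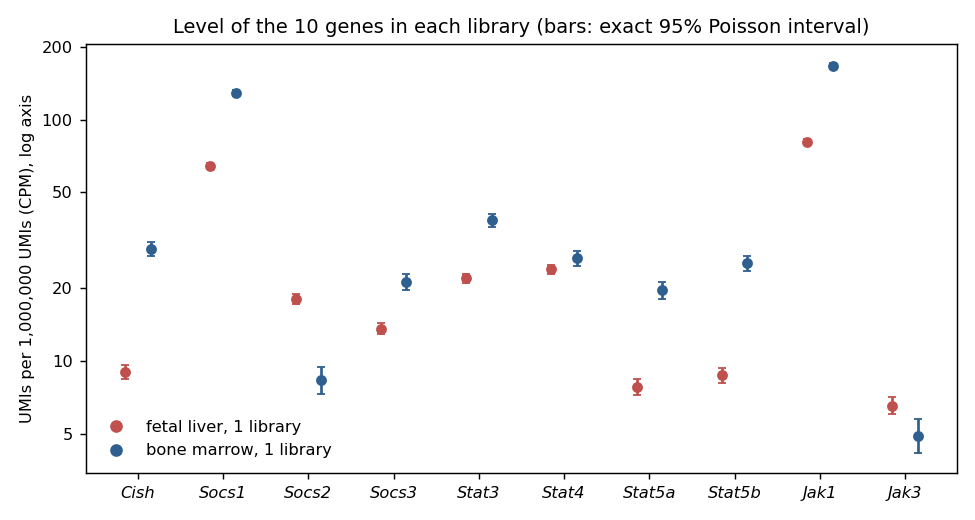
Level of each of the 10 genes (CPM, log axis) in the fetal liver library (red) and the bone marrow library (blue), with exact 95% Poisson intervals. Cish stands at 9.005 and 29.1 CPM, and Socs2 is higher in fetal liver at 18.1 against 8.32 CPM.

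To see in which cells the genes were read, each library was clustered by itself without the 10 genes, and clusters were named from marker genes. ILC2 progenitor-like cells (raised genes such as Gata3, Il1rl1, Il17rb, Icos and Areg) numbered 1381 in fetal liver and 2071 in bone marrow. Not every cluster of this class had all of these raised. Among its fetal liver clusters Areg was raised only in cluster 20 (116 cells) and Il1rl1 only in clusters 5 and 20. Gata3 was not raised in fetal liver cluster 13 (247 cells). In bone marrow, Gata3 and Icos were not raised in cluster 3 (888 cells), nor Gata3, Il1rl1 and Il17rb in cluster 16 (67 cells). NK or ILC1-like cells (Klrd1 with Ncr1 or Xcl1) made up 2550 fetal liver and 683 bone marrow cells. ILC progenitor-like cells (Zbtb16, Pdcd1) made up 805 and 1243. Lymphoid progenitor-like cells (Ly6d or Satb1) numbered 617 and 975. In this class Ly6d was not raised in fetal liver cluster 10 (333 cells). Satb1 was not raised in bone marrow clusters 6 (443 cells) and 11 (204 cells). Dntt was raised in the bone marrow clusters of that last class and had 0 UMIs in the fetal liver class. LTi or ILC3-like cells (Il22, Lta, Ccr6), 1621 in number, formed a named class in fetal liver only. A total of 995 fetal liver and 2286 bone marrow cells stayed unnamed. Of these, bone marrow cluster 4 (849 cells) had the ILC2 markers Il17rb, Icos and Rora raised. Bone marrow cluster 5 (588 cells) had the ILC progenitor markers Zbtb16, Pdcd1, Tox2 and Tcf7 raised. Interferon response genes stood in the top 10 genes by fold of named clusters 1 (Iigp1) and 13 (Iigp1 and Gbp2) of fetal liver and 7 (Ifit1 and Isg15) of bone marrow, and led the unnamed bone marrow cluster 19 of 22 cells. A rule set after seeing the data left clusters led by MHC class II genes unnamed, fetal liver cluster 21 (1.34% of cells, with NK or ILC1 markers) and bone marrow cluster 12 (2.40%, with 6 raised LTi or ILC3 markers). A difference from the study's own annotation may come from these rebuilt names.

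Cish was concentrated in 1 class of the bone marrow library. Its 2071 ILC2 progenitor-like cells were 28.5% of the cells and 15.3% of the UMIs of that library, and they held 563 of its 872 Cish UMIs, or 64.6%. Their level was 123 CPM (113 to 134). In the other named bone marrow classes Cish stood at 11.1 CPM in ILC progenitor-like, 9.29 CPM in NK or ILC1-like and 5.68 CPM in lymphoid progenitor-like cells. By cluster it was highest in clusters 3 and 2, both ILC2 progenitor-like, at 164 and 108 CPM. The next were 3 unnamed bone marrow clusters, 14, 12 and 13, at 48.0, 38.1 and 34.8 CPM.

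In fetal liver the order of the classes was different. Cish was highest in LTi or ILC3-like cells, at 22.8 CPM (19.99 to 25.9), followed by NK or ILC1-like cells at 13.2 CPM (11.8 to 14.7) and the 137 mast or basophil-like cells at 13.1 CPM (9.08 to 18.3). ILC2 progenitor-like cells stood at 6.72 CPM (5.54 to 8.07). ILC progenitor-like and lymphoid progenitor-like cells had 3.18 and 1.91 CPM, with overlapping intervals. The highest clusters were LTi or ILC3-like cluster 3 at 28.8 CPM and NK or ILC1-like cluster 1 at 24.9 CPM. Fetal liver ILC2 progenitor-like cells thus lay 18.3-fold below their bone marrow namesakes, a log2 ratio of -4.20 (-4.50 to -3.90). The cells compared share a class name but not all raised markers, as given above. Unnamed bone marrow cluster 4 (849 cells), with 3 raised ILC2 markers and 10.8 CPM of Cish, is not part of this comparison. The clusters of the class varied, from 5.23 to 16.04 CPM over 4 fetal liver clusters and from 25.2 to 164 CPM over 3 bone marrow clusters. The intervals of the nearest pair, fetal liver cluster 20 (8.01 to 28.7, from 11 UMIs) and bone marrow cluster 16 (10.1 to 52.0, from 7 UMIs), overlap. Without ILC2 progenitor-like cells the ratio between the whole libraries was -0.35.

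The difference was also there when every cell was thinned to 1000 UMIs, so that deep and shallow cells had the same chance to show a Cish molecule. A Cish UMI was then seen in 220 of 2061 bone marrow ILC2 progenitor-like cells, 10.7% (9.37 to 12.1), and in 6 of 1381 fetal liver ones, 0.434% (0.160 to 0.943). Without thinning the shares were 20.3% and 7.31%, at median depths of 1937 and 11740 UMIs. No class here is sure to lack Cish, but the lowest thinned share in bone marrow was 0.308%, in lymphoid progenitor-like cells, and in fetal liver these cells had 0.162%. The thinned fetal liver shares rest on 6 cells and 1 cell. Over all UMIs the fetal liver ILC2 progenitor-like cells stood above the lymphoid progenitor-like ones, at 6.72 against 1.91 CPM (1.07 to 3.15). Per 1000 cells, unthinned, the class gave 272 Cish UMIs in bone marrow and 82.5 in fetal liver.

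**Figure D2:**
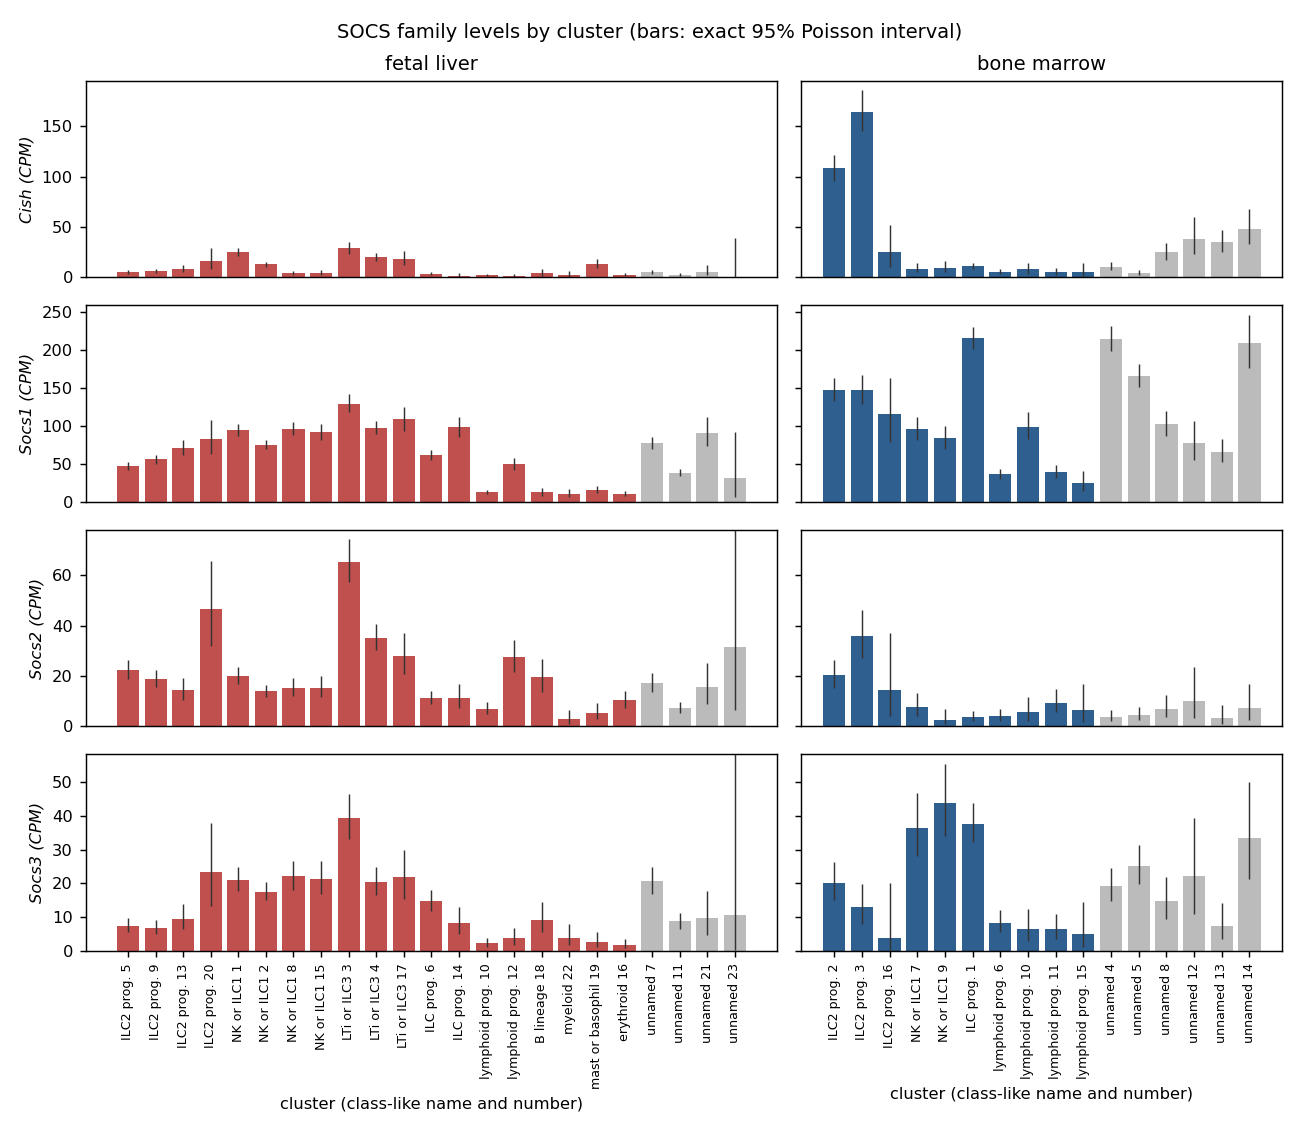
Level (CPM, from 0) of Cish, Socs1, Socs2 and Socs3 in each cluster of at least 50 cells, fetal liver left and bone marrow right, with exact 95% Poisson intervals and unnamed clusters in grey. Cish stands out in bone marrow clusters 3 and 2, at 164 and 108 CPM, while fetal liver Socs1, Socs2 and Socs3 are all highest in LTi or ILC3-like cluster 3; the interval of the smallest cluster, 23, is cut by the axis.

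Other properties of the ILC2 progenitor-like cells differed between the libraries too. Immediate early genes, which respond within minutes to signalling and to handling of the cells, summed to 34512 CPM in the bone marrow class and 7361 CPM in the fetal one. Cell cycle genes summed to 324 and 3658 CPM. ILC2 markers summed to 2891 CPM in bone marrow and 1223 CPM in fetal liver, NK or ILC1 markers to 197 and 710 CPM, and T lineage markers to 7.21 and 442 CPM. Across clusters the level of Cish followed that of the immediate early genes, with Pearson r of 0.85 over 16 bone marrow and 0.83 over 23 fetal liver clusters, which share a library and so are no independent samples. Bone marrow clusters with more Cish also had fewer UMIs per cell (r of -0.68).

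Restricting the class by such a property, a choice made after seeing the data, made the Cish ratio smaller in size but left it past 2-fold each time. Depth stayed unmatched in every set. Median UMIs per cell in fetal liver and bone marrow were 11756.5 and 3089.5 with at least 1000 genes, and 4810 and 2567 at 2000 to 6000 UMIs. They were 7348 and 1905 without G2 and M phase UMIs, and 9885 and 2323 in the immediate early set. It was -3.77 in cells with at least 1000 genes. In cells with 2000 to 6000 UMIs it was -2.44 (-3.51 to -1.54), from 10 UMIs in 105 fetal liver cells and 300 UMIs in 955 bone marrow cells. In cells without a UMI of G2 and M phase genes it was -3.13 (-3.98 to -2.39), and in cells with 1 to 2% of UMIs on immediate early genes it was -2.97 (-3.67 to -2.27).

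None of the other genes stayed past 2-fold in every one of these sets. Over all ILC2 progenitor-like cells, bone marrow was at least 2-fold higher in 8 of the 9 members that reached 10 CPM, against 20.9% of all genes, and 0 were in fetal liver, against 19.2%. This count fell to 1 member, Cish, in cells with 2000 to 6000 UMIs. It was 3 in cells without G2 and M phase UMIs, 4 at 1 to 2% of immediate early UMIs, 7 with at least 1000 genes and 6 with either other scaling. The share of all genes in these restricted cells is not given here. Whether the fall is particular to these members can therefore not be told. Socs1, for example, stood at 56.2 CPM in fetal liver against 146 CPM in bone marrow ILC2 progenitor-like cells (log2 ratio -1.37), and its ratio was -0.70 (-1.19 to -0.24) at 2000 to 6000 UMIs. Stat4 went from -1.36 to 0.25 (-0.52 to 0.96), Socs3 from -1.03 to 0.68 (-0.34 to 1.59) and Socs2 from -0.30 to 0.86 (0.0015 to 1.65). Jak1 went from -1.67 to -0.56 (-0.96 to -0.18). In the other sets Jak1 stayed past 2-fold, at -1.41 with at least 1000 genes, -1.09 without G2 and M phase UMIs and -1.58 at 1 to 2% of immediate early UMIs.

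**Figure D3:**
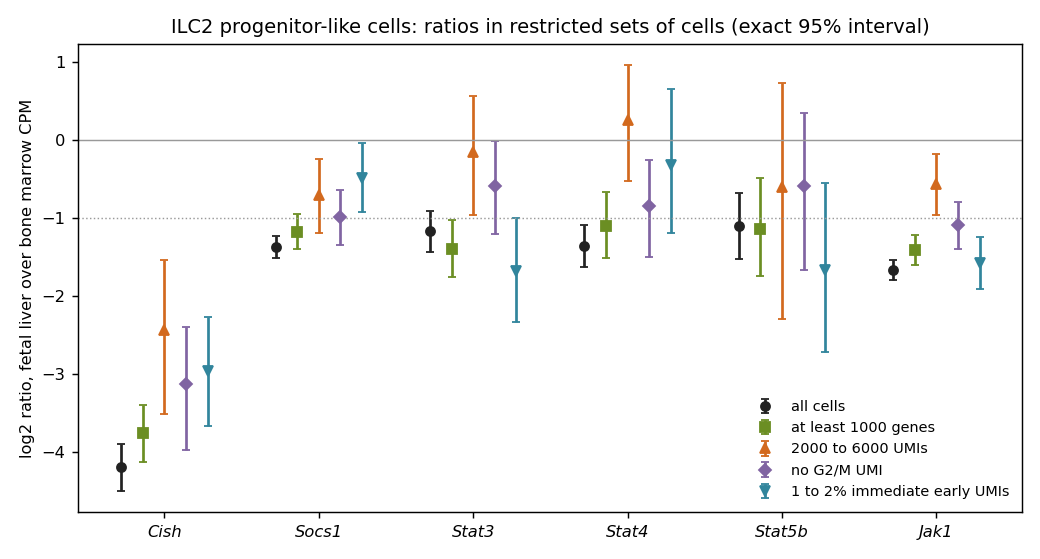
Log2 ratio (fetal liver over bone marrow, CPM) in ILC2 progenitor-like cells for 6 of the genes, over all cells of the class and over 4 restricted sets, with exact 95% intervals. Cish lies between -4.20 and -2.44 in all 5 sets, whereas Stat4 spans -1.36 to 0.25.

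Over all cells of each class, Socs2 was higher in fetal liver in each shared class but ILC2 progenitor-like cells. In NK or ILC1-like cells it stood at 15.99 CPM in fetal liver against 5.27 CPM in bone marrow (log2 ratio 1.60, 0.90 to 2.40). In ILC progenitor-like cells it stood at 11.2 and 3.70 CPM (1.59, 0.82 to 2.46), and in lymphoid progenitor-like cells at 14.1 and 6.10 CPM (1.21, 0.69 to 1.75). In ILC2 progenitor-like cells the levels were 20.6 and 25.4 CPM, with an interval that includes 0 (-0.61 to 0.01), and 37.6 and 20.8 CPM at 2000 to 6000 UMIs, from 18 and 55 UMIs. By cluster, Socs2 was highest in fetal liver LTi or ILC3-like cluster 3, at 65.4 CPM, and in bone marrow ILC2 progenitor-like cluster 3, at 35.7 CPM. In bone marrow, 46.6% of all Socs2 UMIs lay in ILC2 progenitor-like cells.

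Socs1 differed by class. It stood at 71.1 CPM in fetal liver against 216 CPM in bone marrow ILC progenitor-like cells (log2 ratio -1.60, -1.75 to -1.45). That bone marrow class was cluster 1 alone. Unnamed bone marrow cluster 5, with 4 raised ILC progenitor markers, had 166 CPM of Socs1 (152 to 181). In NK or ILC1-like cells the levels were 86.8 and 90.2 CPM (-0.05, -0.23 to 0.13). In lymphoid progenitor-like cells it stood at 25.5 and 47.3 CPM, and this ratio turned from -0.89 to 0.50 at 2000 to 6000 UMIs. Among the fetal liver clusters Socs1 ran from 10.8 CPM in the erythroid-like cluster to 130 CPM in LTi or ILC3-like cluster 3. In bone marrow it ran from 24.8 CPM in lymphoid progenitor-like cluster 15 to 216 CPM in ILC progenitor-like cluster 1, with unnamed cluster 4 at 215 CPM. Socs3 was highest in the same fetal liver cluster 3, at 39.4 CPM, and in bone marrow NK or ILC1-like cluster 9, at 43.8 CPM. LTi or ILC3-like cluster 3 also had the highest summed level of immediate early genes in fetal liver, 13879 CPM, whose part in these levels was not tested.

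Among the 4 shared classes Stat5a and Stat5b were highest in lymphoid progenitor-like cells of both tissues, where Cish was lowest. Stat5a stood there at 15.4 CPM in fetal liver against 33.9 CPM in bone marrow, and Stat5b at 15.7 and 34.1 CPM. The highest single clusters were bone marrow cluster 10, with 38.0 CPM of Stat5a and 53.9 CPM of Stat5b, and fetal liver cluster 12, with 19.0 and 22.7 CPM. In fetal liver, Stat5a was also high in the erythroid-like cluster, at 17.8 CPM, and in the myeloid-like one, at 16.7 CPM, both above the 15.4 CPM of the lymphoid progenitor-like class with overlapping intervals. Bone marrow ILC2 progenitor-like cells, where Cish was at its peak, had only 13.1 CPM of Stat5a and 16.4 CPM of Stat5b. Across the 16 bone marrow clusters the levels of Stat5a and Stat5b went together (Pearson r of 0.74).

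Over all cells of each class, both Stat5 genes were higher in bone marrow within every shared class, but at 2000 to 6000 UMIs 5 of the 8 intervals included 0. In NK or ILC1-like cells Stat5a stood at 5.79 CPM in fetal liver against 15.2 CPM in bone marrow (log2 ratio -1.39, -1.87 to -0.89) and Stat5b at 6.77 and 26.6 CPM (-1.98, -2.36 to -1.58). At 2000 to 6000 UMIs these ratios were -1.43 (-2.40 to -0.51) and -1.82 (-2.65 to -1.05). In lymphoid progenitor-like cells, which had like levels of cell cycle genes in both libraries (2030 and 2297 CPM), the ratios were -1.14 for Stat5a and -1.12 for Stat5b. Immediate early genes there summed to 2355 and 7267 CPM and myeloid markers to 199 and 18.9 CPM, and their part was not tested. Stat5a stood at -0.03 (-1.16 to 0.94) in the cells of this class with 2000 to 6000 UMIs and at -0.37 (-1.10 to 0.32) in those without G2 and M phase UMIs. Stat5b stood at -1.35 (-3.01 to -0.07) and -0.88 (-1.63 to -0.20) there. In ILC progenitor-like cells the ratios were -0.82 and -1.37, and at 2000 to 6000 UMIs -0.60 and -0.29, from 3 and 7 fetal liver UMIs. In ILC2 progenitor-like cells at that depth they were -0.34 and -0.60, from 5 fetal liver UMIs each. The intervals of these 4 ratios include 0.

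In NK or ILC1-like cells Stat4 had like levels, 40.2 CPM in fetal liver against 40.6 CPM in bone marrow (log2 ratio -0.01, -0.28 to 0.26). This was its highest class in fetal liver, while in bone marrow ILC2 progenitor-like cells had 43.7 CPM, with an interval (37.9 to 50.2) that overlaps that of NK or ILC1-like cells (33.9 to 48.2). Its highest clusters were NK or ILC1-like cluster 2 of fetal liver, at 46.0 CPM, and cluster 9 of bone marrow, at 55.6 CPM, closely followed by ILC2 progenitor-like cluster 3 at 51.7 CPM. Stat3 was more even among bone marrow clusters, from 21.7 to 57.0 CPM. Its highest levels were in lymphoid progenitor-like clusters of both libraries, 39.5 CPM in fetal liver cluster 12 and 57.0 CPM in bone marrow cluster 10.

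**Figure D4:**
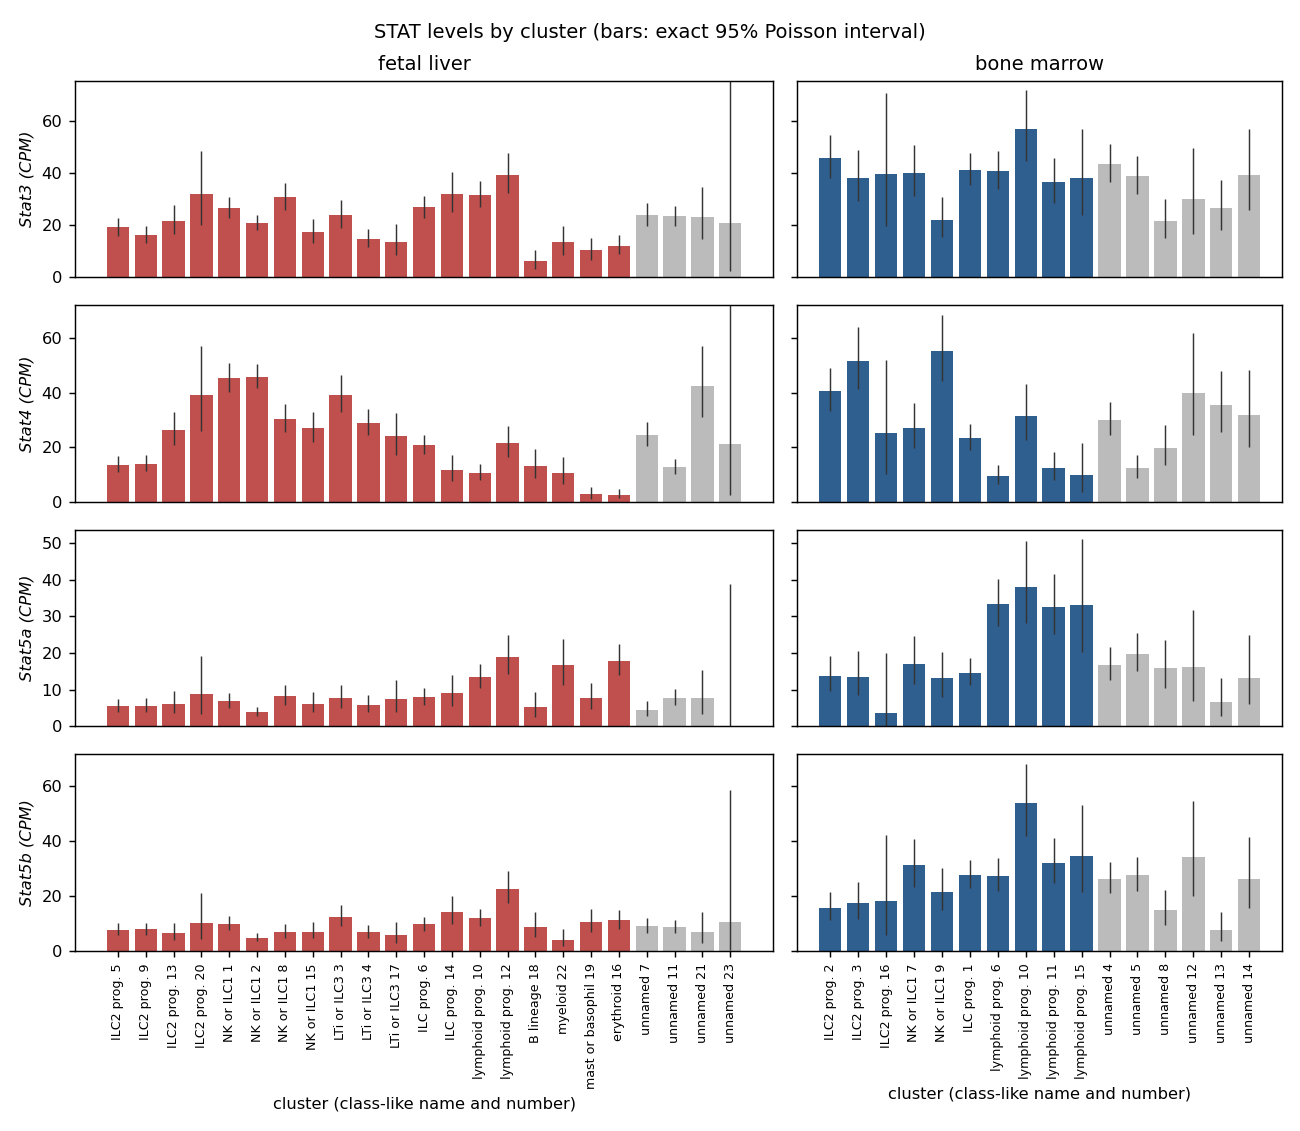
Level (CPM, from 0) of Stat3, Stat4, Stat5a and Stat5b in each cluster of at least 50 cells, fetal liver left and bone marrow right, with exact 95% Poisson intervals and unnamed clusters in grey. Stat5a and Stat5b peak in lymphoid progenitor-like cluster 10 of bone marrow, at 38.0 and 53.9 CPM; the intervals of the smallest cluster, 23, are cut by the axis.

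Jak1 was read in every cluster of at least 50 cells. It ran from 35.7 CPM (erythroid-like) to 131 CPM (LTi or ILC3-like cluster 3) in fetal liver and from 76.1 CPM (lymphoid progenitor-like cluster 11) to 244 CPM (ILC2 progenitor-like cluster 3) in bone marrow. Within NK or ILC1-like and ILC progenitor-like cells its log2 ratios were both -1.06, and in lymphoid progenitor-like cells the ratio was -0.62. Jak3 stayed under 10 CPM in the 4 shared classes of both libraries, and its highest fetal liver level was 15.4 CPM, in LTi or ILC3-like cluster 3.

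Counted by class, bone marrow was at least 2-fold higher in 4 of 9 members in NK or ILC1-like cells, against 12.9% of all genes, and 1, Socs2, in fetal liver, against 11.6%. In ILC progenitor-like cells 5 of 9 were higher in bone marrow, against 14% of all genes, and 1, Socs2, in fetal liver, against 8.52%. Unnamed bone marrow cluster 5, with raised ILC progenitor markers, is not in that count. Its Jak1 was lower than in the bone marrow class (139 against 220 CPM) and its Stat5a higher (19.8 against 14.6 CPM). In lymphoid progenitor-like cells 2 of 7, both Stat5 genes, were higher in bone marrow, against 6.4%, and 1, again Socs2, in fetal liver, against 3.69%. Several of these ratios lay close to 2-fold, and the count for bone marrow NK or ILC1-like cells was 2 with either other scaling. The cells behind these counts were not matched, with fetal liver values first here. In ILC progenitor-like cells immediate early genes summed to 3787 and 16786 CPM and cell cycle genes to 1199 and 268 CPM. T lineage markers there summed to 846 and 3.70 CPM. In NK or ILC1-like cells these sums were 6345 and 16655, 3729 and 547, and 225 and 13.9 CPM. Median depths of the classes were 10034 and 3300, and 8506 and 4360 UMIs. The part of these differences in the counts was not tested. Cish in NK or ILC1-like cells stood at 13.2 CPM in fetal liver against 9.29 CPM in bone marrow, for a log2 ratio of 0.50 (-0.04 to 1.09). At 2000 to 6000 UMIs that ratio was 1.60 (0.86 to 2.40), opposite in sign to that of the ILC2 progenitor-like cells. By cluster, Cish ran from 4.24 CPM (cluster 8) to 24.9 CPM (cluster 1) in the fetal liver class. The bone marrow clusters of the class stood at 8.84 and 9.80 CPM. Fetal liver cluster 1 had the lowest median depth of its class, 5858.5 UMIs, and its part in the change was not tested.

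**Figure D5:**
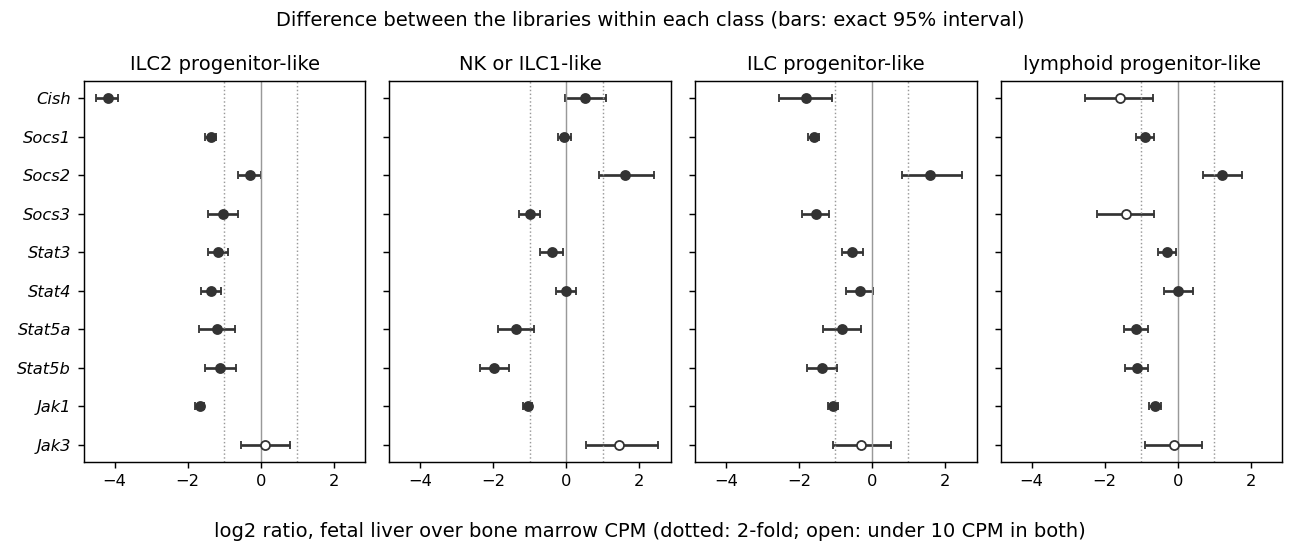
Log2 ratio (fetal liver over bone marrow, CPM) for each gene in the 4 classes found in both libraries, with exact 95% intervals and dotted lines at 2-fold. Cish in ILC2 progenitor-like cells, at -4.20, lies farthest from 0, and Socs2 is right of 0 in the other 3 classes.

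The spread over single cells was read as the variance of a gene's counts divided by the variance that Poisson sampling gives at each cell's depth, so that 1 means no more spread than sampling. In fetal liver Socs1 had an index of 1.87 and Socs2 of 1.64, both past 1.5, a value that 14.9% of all genes with at least 10 CPM reached. In bone marrow Socs1 had 1.56 and Cish 1.51, where 9.13% of all genes did. Without the 5% of cells with most UMIs both fell under 1.5, to 1.472 and 1.496, while fetal liver Socs1 and Socs2 stood at 1.78 and 1.58. The median over all genes was 1.09 and 1.06. Within clusters Socs1 and Socs2 of fetal liver kept 1.64 and 1.56 (10.7% of all genes), while Cish and Socs1 of bone marrow fell to 1.32 and 1.33 and no member passed 1.5 (5.35%). Cells with many copies were rare. Socs1 reached 12 UMIs in a fetal liver cell and Socs2 reached 10, whereas Cish reached 4 in either library.

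Stat5a, Stat5b and Jak3 had indices from 1.00 to 1.07 in both libraries, about that of sampling alone. The index depends on the UMIs per cell, and at the same relative spread it lies nearer 1 for lower counts. Low genes could still exceed 1, as Cish did in fetal liver (1.27 at 9.005 CPM) and Socs2 in bone marrow (1.32 at 8.32 CPM). An index near 1 does not show even expression. Stat5a, for example, stood at 13.1 CPM in bone marrow ILC2 progenitor-like cells and at 33.9 CPM in lymphoid progenitor-like cells. Among bone marrow ILC2 progenitor-like cells thinned to 1000 UMIs, in another random draw, 231 held a Cish UMI and 1830 did not. For each of the 9 other members the interval of the ratio between these cells included 0, with Jak1 at -0.07 (-0.53 to 0.36) and Socs1 at 0.17 (-0.35 to 0.66). Pim1, a STAT5 target kinase singled out after its value was seen, stood at 0.17 (0.04 to 0.30), whereas the intervals of Bcl2 (0.40, -0.27 to 1.02), Osm (-0.01), Gata3 (-0.10) and Mcl1 (-0.24) include 0.

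For the receptors around these genes, the counts over whole libraries were near the shares of all genes. Of 27 listed receptors that signal through JAKs, 11 reached 10 CPM. Among these, bone marrow exceeded fetal liver 2-fold in 1, Il7r (log2 ratio -1.23), against 10.9% of all genes. Fetal liver exceeded bone marrow in 1, the interferon γ receptor gene Ifngr1 (1.39, at 149 and 57.1 CPM), against 7.25%. Il27ra stood at -0.97 and Ifngr2 at 0.93. Of further genes of the pathway, the kinase gene Jak2 stood at 12.7 CPM in fetal liver against 36.3 CPM in bone marrow (-1.52), and Stat6, which serves interleukin 4, at 8.53 and 16.7 CPM (-0.97).

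Of 14 other negative regulators that reached 10 CPM, bone marrow exceeded fetal liver 2-fold in 1, against 10.9% of all genes. It was the phosphatase gene Dusp1 (-1.38), which is also an immediate early gene. In the other direction there were 0, against 7.25% of all genes. Ptpn6, which encodes the phosphatase SHP-1, stood at 0.84, the ubiquitin ligase gene Cbl at -0.85 and Ptprc at -0.78. Bone marrow was at least 2-fold higher in 4 of 15 cytokine-induced STAT5 targets, against 10.9% of all genes. Among them Osm stood at -3.95, the survival gene Bcl2 at 70.8 and 382 CPM (-2.43) and Gata3, which is also an ILC2 marker, at -1.95. The only one at least 2-fold higher in fetal liver, against 7.25% of all genes, was Lta (4.82), a cytokine gene and also an LTi marker. The median over the targets was -0.19. Within ILC2 progenitor-like cells bone marrow exceeded fetal liver 2-fold in 8 of 16 targets and 10 of 13 receptors, against 20.9% of all genes, and fetal liver exceeded bone marrow in 1 of each, against 19.2%, beside the same depth and immediate early values given above.

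The immediate early genes and cell cycle genes, measured as context, differed on a larger scale. Bone marrow was at least 2-fold higher in 19 of 21 immediate early genes, against 10.9% of all genes. Nr4a3 stood at -3.58, Nr4a1 and Nr4a2 both at -2.57 and Zfp36 at -2.40. Fetal liver was at least 2-fold higher in 15 of 16 genes of the G2 and M phases and in 11 of 15 S phase genes, against 7.25% of all genes. Of the G2 and M phase genes, Ccnb1 stood at 2.53, Plk1 at 2.45, Ube2c at 2.39 and Ccna2 at 2.21. Of the S phase genes, Cdc45 stood at 1.66, Rrm2 at 1.60, Cdc6 at 1.59 and Gins2 at 1.51. Their part in the members' ratios over whole libraries was not tested.

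Genes whose level followed a member most closely over clusters were ranked by Pearson r of log2(CPM + 10). In fetal liver (23 clusters) Socs1 was followed by the kinase gene Txk (0.97), the common γ chain gene Il2rg (0.96) and Rinl (0.91), and Jak1 by Gabarapl2 (0.93), Ets1 (0.91) and Rinl (0.89). In bone marrow (16 clusters) Socs1 was followed by Rora (0.95), an ILC2 marker, Itpr2 (0.92) and Kif5b (0.91), and Jak1 by Ctsd (0.90), Slc25a36 (0.89) and Coq10b (0.86). Cish of bone marrow, added after its values were seen, was followed by Ly6a (0.96), Shisa5 and Cdk11b (both 0.93). These are descriptions over clusters of 1 library each.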

How the data were processed

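The authors deposited raw UMI counts per gene and barcode, with no normalization. Per the labels' protocols, cells were captured with a 10x 3′ kit, libraries were sequenced on a NovaSeq 6000, and barcodes without a cell were removed. Per the file headers, software version 3.0.1 wrote the tables in format 2. The submitters' processing notes name mm10 and Seurat 4.0 without a role. Nothing names the aligner or annotation (not given in the sources used here). Deposited gene and barcode lists carry no measurement (unit other).

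Counts were summed over kept cells and scaled to CPM. Intervals of levels are exact Poisson, those of ratios and shares exact Clopper-Pearson. Each library was clustered (2000 variable genes, 30 principal components, 15 neighbours, Leiden resolution 1, leidenalg 0.10.2) without the 10 genes. A cluster of at least 50 cells was named "X-like" where at least 3 markers were raised 2-fold, more than of any other class. In addition, no other class could have more of its markers among the cluster's top 10 genes by fold. A shallow cluster with none of the class markers in that top 10 also stayed unnamed. Some unnamed clusters therefore had 3 or more raised markers of 1 class. This naming rule was set after seeing the data. Clusters led by at least 4 MHC class II genes stayed unnamed. No doublet caller was run and doublets remained in the data, with an alternative leaving out the 5% of cells with most UMIs. Of 27998 identifiers, 27645 matched GENCODE M21 (the same build). Scaling by median ratios moved every log2 ratio by 0.162 and by TMM (edgeR 4.0.16) by 0.135.

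The members and lists were chosen with earlier results of these data known. Named were all members and sort markers, the 4 genes of each list with the largest absolute log2 ratio at 10 CPM or more, and, for members at 50 CPM or more, the 3 genes most alike over clusters. The list of other JAK and STAT genes is not reported here as a list. Pim1 and the neighbours of Cish were chosen after their values were seen. The ratio and spread calculations were tested on simulated data.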

Additional observations from a re-analysis of the deposited data

How the results depend on the processing

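No paired analysis was possible because each tissue has 1 library. Over 10 alternative settings Cish ranged from -2.58 to -0.35, Stat5a from -1.45 to -1.13, Stat5b from -1.58 to -1.36, Jak1 from -1.14 to -0.87 and Socs2 from 0.61 to 1.75, each keeping its sign. Leaving out ILC2 progenitor-like cells and every restriction to part of a class were chosen after seeing the data. With a median-ratio size factor the log2 ratios were -1.53 for Cish, -0.84 for Socs1, -0.48 for Socs3, -0.63 for Stat3, 0.0057 for Stat4, -1.17 for Stat5a, -1.38 for Stat5b and -0.87 for Jak1. With TMM they were -0.86 for Socs1, -0.66 for Stat3, -0.021 for Stat4 and -0.90 for Jak1. With every cell weighing the same they were -1.89 for Cish, -0.94 for Socs1 and -0.46 for Socs3. With at least 1000 genes and at most 5% mitochondrial UMIs they were -0.90 for Cish, 1.57 for Socs2, -0.0082 for Stat4 and -0.94 for Jak1, and the count of members higher in bone marrow went from 4 to 2. Without clusters of other lineages they were -0.85 for Socs1, -0.023 for Stat4 and -0.95 for Jak1. With the shared classes weighing the same they were -2.58 for Cish, 0.61 for Socs2, -1.22 for Socs3, -0.58 for Stat3, -0.44 for Stat4, -1.13 for Stat5a, -1.36 for Stat5b and -1.14 for Jak1, and 0 members were 2-fold higher in fetal liver. Without ILC2 progenitor-like cells they were -0.35 for Cish, -0.92 for Socs1, 1.75 for Socs2, 0.11 for Stat4 and -0.90 for Jak1, and 2 members were 2-fold higher in bone marrow.

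Within ILC2 progenitor-like cells the count of members higher in bone marrow was 1 in cells with 2000 to 6000 UMIs, 3 without G2 and M phase UMIs and 4 at 1 to 2% of immediate early UMIs. At 2000 to 6000 UMIs Socs2, Socs3 and Stat4 turned to 0.86, 0.68 and 0.25 there, and Socs1 to 0.50 in lymphoid progenitor-like cells. In NK or ILC1-like cells that count was 2 with either scaling and in these 3 restrictions, in each of which 2 members were higher in fetal liver. These counts take the members that reached 10 CPM over the whole class, which leaves out Jak3, at 1.94 (11.3 CPM in fetal liver) in NK or ILC1-like cells with 2000 to 6000 UMIs and 1.96 (10.6 CPM) in those without G2 and M phase UMIs. In ILC progenitor-like cells it was 3 at 2000 to 6000 UMIs, 1 of them Cish, which had 0 UMIs in 64 fetal liver cells and an interval that reaches 0.15. In lymphoid progenitor-like cells it was 0 with median ratios, 1 with TMM, 1 at 2000 to 6000 UMIs and 0 without G2 and M phase UMIs, and 2 members were higher in fetal liver in the last 2 of these sets. Of the lists, 2 receptors were higher in fetal liver with either scaling, and 3 in each tissue with no minimum and a pseudocount of 1 CPM. At 50 CPM or more, 7 S phase and 9 G2 and M phase genes were higher in fetal liver. No share over all genes is given here for the restricted cells, so the member counts in them cannot be set against one. The causes of these changes were not tested. Fewer than 50 UMIs lay behind Cish in each bone marrow class other than ILC2 progenitor-like and unnamed cells, which limits those levels.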
